A study of Rattus norvegicus with 112 samples.

Results

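Rat cortical neurons in primary culture were given a brief dose of nicotine, and their RNA was compared with that of control cultures. Nicotine was at 10 uM for 15 min, the medium was changed to take it away, and RNA was collected 45 min later, which is 60 min after nicotine was first added. The labels put 3 arrays in the nicotine group and 3 in the control group, and these 6 of the 112 arrays of the study, which the labels place in the same run, were taken. For the control arrays the labels give a time of 0 min and do not say whether the medium was changed. Other experiments of the study, used here only for comparison, exposed such cultures to 10 uM nicotine for 18 h or to 1 mM NMDA for 60 min, with 3 arrays each and 3 shared control arrays. The labels give neither the strain and age of the animals nor the source of each replicate, so p-values here measure the spread between these samples, which may be technical.

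Nicotinic acetylcholine receptors are channels built of several subunits that open when acetylcholine or nicotine binds. They let sodium and calcium into the cell, and in the cortex they sit on nerve terminals, where they promote transmitter release, and on some cell bodies. Those that contain the alpha4 and beta2 subunits and those made of alpha7 are the main forms in the brain. Calcium that enters an active neuron acts through kinases and the transcription factor CREB on immediate early genes such as Fos and Egr1, whose RNA appears and decays within a short time. More stable transcripts move more slowly.

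Each array gave a fluorescence intensity for 1322 probe sets, of which 59 were controls of hybridization or labelling, and 884 of the other 1263 were bright enough to be tested. The authors had scaled the arrays to a common mean, with a trimmed mean of about 2511 on each of the 6. The arrays resembled each other as much between the groups as within them, with correlations of log2 values of 0.953 to 0.973 between nicotine and control arrays, 0.965 to 0.970 among nicotine arrays and 0.957 to 0.967 among controls. The ratio of 3' to 5' signal of GAPDH, which grows as RNA degrades, was 1.43 ± 0.07 on nicotine arrays and 1.46 ± 0.10 on control arrays (SD, n = 3 each; exact permutation test, 2-sided, p = 0.6). For actin this ratio was 0.772 ± 0.043 on nicotine arrays and 0.842 ± 0.020 on controls, without overlap (exact permutation test, 2-sided, p = 0.1, the smallest that 3 against 3 allows). Its part in the results was not tested.

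No gene passed the test after 15 min of nicotine. By limma, 0 of 884 probe sets (0%) had an adjusted p under 0.05, and the lowest was 0.9996. An unadjusted p under 0.05 was reached by 29 probe sets (3.28%), 15 with a higher and 14 with a lower mean on the nicotine arrays. All 3 nicotine arrays lay above all 3 controls at 39 probe sets (4.41%) and below them at 48 (5.43%). The log2 difference, nicotine minus control, had a median of -0.003 over all tested probe sets, with quartiles of -0.12 and 0.14. The 95% interval of a probe set's difference reached a median of 0.460 to either side, and 705 intervals (79.8%) lay wholly between -1 and 1. Precision followed brightness: the median reach was 0.801 for the dimmest 295 probe sets and 0.297 for the brightest 295. Without control replicate 2 alone, 1 probe set passed, M99222_s_at of the calcium channel gene Cacna1a, at 2.21 (limma, adjusted p = 0.0244). With all arrays that probe set had 1022, 1207 and 1229 on nicotine arrays, against 268, 1266 and 150 on controls, and the control of 1266 lay above all 3 nicotine arrays. The other 3 tested probe sets of Cacna1a stood at -0.16, -0.06 and -0.01.

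**Figure D1:**
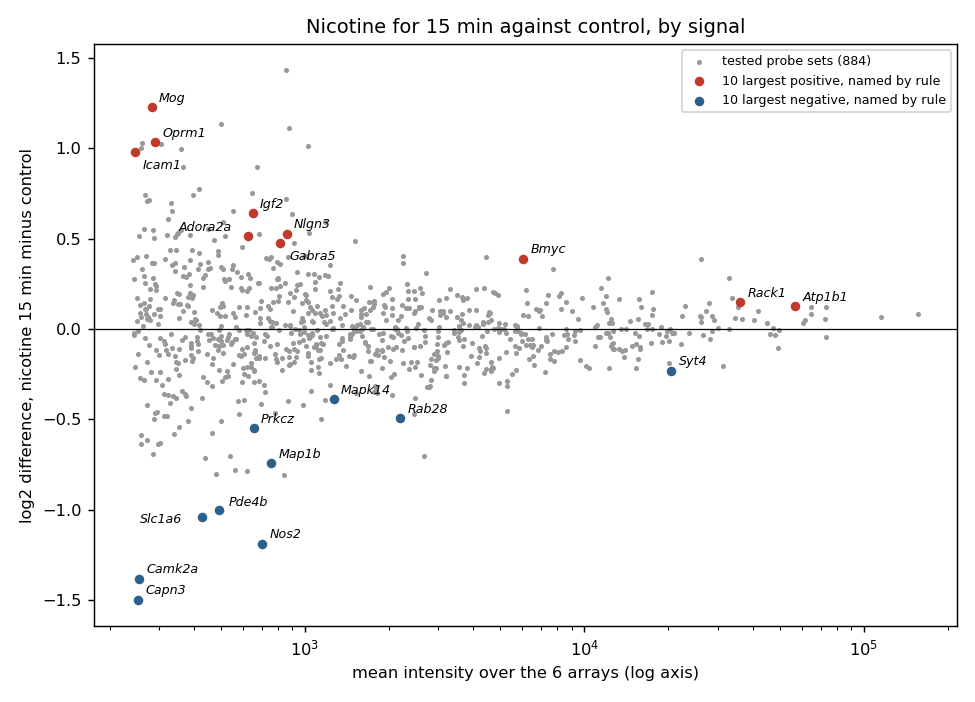
Log2 difference of each of the 884 tested probe sets, nicotine for 15 min minus control, against its mean intensity over the 6 arrays on a log axis. Coloured points are the 20 probe sets named below, and the spread narrows from dim to bright probe sets; none of the points passed the adjusted threshold.

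The probe sets named here are the 10 with the largest positive and the 10 with the largest negative difference among those with an unadjusted p under 0.05 and groups that did not overlap. They are given as values that did not pass, each with an adjusted p of 0.9996 by limma. Because the rule asks for separated groups, the separation itself is no finding. Of the 20 genes, 14 had a control mean under 1000.

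Among the 10 with higher nicotine arrays, Mog, a myelin protein of oligodendrocytes, had 328, 574 and 319 on nicotine arrays, against 276, 156 and 42.7 on controls, a log2 difference of 1.23 (SE 0.51). Oprm1, the mu opioid receptor, had 249, 424 and 579 on nicotine arrays, against 158, 147 and 191 on controls, a difference of 1.03 (SE 0.39). The adhesion molecule gene Icam1 had 354, 298 and 389 on nicotine arrays, against 121, 189 and 136 on controls, a difference of 0.98 (SE 0.38). These signals are close to the floor of the tested range, whose lowest mean is 243. Igf2, a growth factor, stood at 0.64, Nlgn3, a postsynaptic adhesion protein, at 0.53, and the adenosine receptor gene Adora2a at 0.51. Gabra5, a GABA type A receptor subunit, stood at 0.47 and Bmyc, a relative of Myc in rodents, at 0.39. At bright probe sets the differences were small: Rack1, a scaffold protein of ribosomes and kinases, averaged 37891 ± 1679 on nicotine arrays and 34194 ± 1450 on controls (SD, n = 3 each), a difference of 0.15. Atp1b1, a subunit of the sodium pump, averaged 59255 ± 1980 on nicotine arrays and 54272 ± 1473 on controls, a difference of 0.13.

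Among the 10 with lower nicotine arrays, Capn3, a calcium-dependent protease best known from muscle, had 117, 87.4 and 106 on nicotine arrays, against 302, 425 and 482 on controls, a log2 difference of -1.50 (SE 0.41). Camk2a, the alpha subunit of calcium/calmodulin kinase II, had 64.0, 125 and 169 on nicotine arrays, against 374, 388 and 408 on controls, a difference of -1.38 (SE 0.42). Nos2, the inducible nitric oxide synthase, had 251, 414 and 591 on nicotine arrays, against 798, 1045 and 1131 on controls, a difference of -1.19 (SE 0.29), and its unadjusted p of 0.00225 was the lowest of all. All of these were dim on the nicotine arrays, while their controls lay closer together for Camk2a than for the other genes. The glutamate transporter gene Slc1a6 stood at -1.04 and Map1b, a microtubule-associated protein, at -0.74. Pde4b, which degrades cAMP, had 197, 458 and 285 on nicotine arrays, against 519, 563 and 948 on controls. Prkcz, an atypical protein kinase C, stood at -0.55, and Mapk14, the p38 alpha stress kinase, at -0.39. Rab28, a small GTPase, had 1733, 1833 and 1874 on nicotine arrays, against 2615, 2414 and 2715 on controls, a difference of -0.50 (SE 0.14). Syt4, a synaptotagmin of secretory vesicles, averaged 18885 ± 2221 on nicotine arrays and 22115 ± 1310 on controls, a difference of -0.23.

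**Figure D2:**
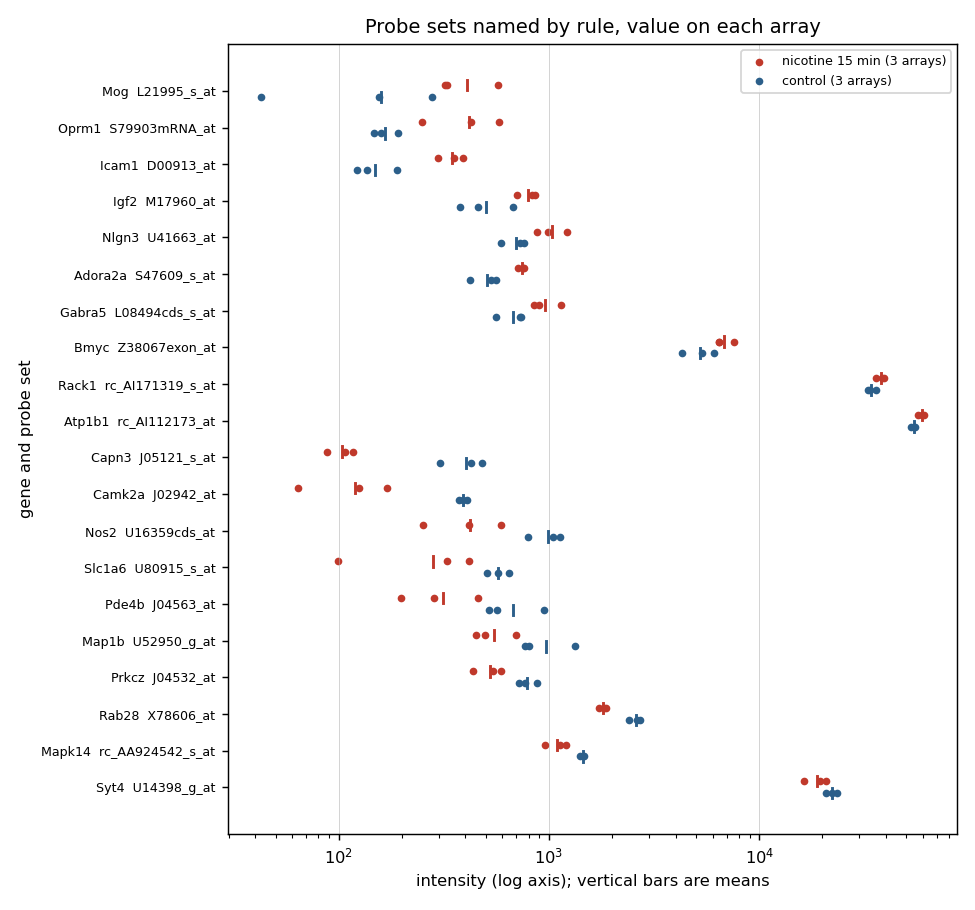
Intensity on each of the 6 arrays (log axis) for the 20 probe sets named by rule, with nicotine arrays above control arrays in each row and vertical bars at the means. Groups were chosen not to overlap; Capn3 shows 87.4 to 117 on nicotine arrays against 302 to 482 on controls.

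Many of these genes have more than 1 probe set on the array, and the others can be set beside the one named. Of the 20 genes, 15 had another tested probe set, 24 in all. Of these 24, 0 had an unadjusted p under 0.05 by limma, all 24 had overlapping groups, and 14 had the same sign as the named one. Icam1 stood at -0.64 at its other probe set, Nos2 at 0.03, 0.10 and 0.55, Slc1a6 at 0.02, Gabra5 at -0.28 and Atp1b1 at -0.22. For Pde4b the others stood at -0.23 and -0.51, and for Map1b at -0.35 and 0.01. Probe sets whose names end in s_at or f_at can take up RNA of several related transcripts, so probe sets of 1 gene need not measure the same RNA. Gnao1, the alpha subunit of the Go protein and abundant in neurons, was singled out after its values were seen, because both of its probe sets were lower: -0.21 and -0.19, with nicotine arrays below controls at each and an adjusted p of 0.9996 by limma. At M17526_g_at it had 25821, 31572 and 29738 on nicotine arrays, against 33378, 33708 and 33076 on controls. The other probe set, M17526_at, is named for the same sequence and was read on the same arrays, so it is not a separate observation.

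The receptors that nicotine opens did not differ past the threshold. The array held 15 of 16 listed nicotinic subunit genes, 11 were tested by their brightest probe set and 0 passed; the median log2 difference was -0.01, against -0.003 over all tested probe sets. Chrna4 and Chrnb2, the subunits of the main high-affinity receptor of the brain, had 1006, 951 and 681 (Chrna4) and 865, 632 and 844 (Chrnb2) on nicotine arrays. On control arrays they had 1006, 889 and 933 (Chrna4) and 628, 936 and 609 (Chrnb2). Both overlapped, at -0.11 (95% interval -0.55 to 0.33) and 0.11 (-0.40 to 0.63). The alpha7 gene Chrna7 was the highest of the list, with 1070, 1137 and 753 on nicotine arrays, against 560, 655 and 1032 on controls, a difference of 0.40 (-0.18 to 0.97).

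The lowest of the subunits was Chrnb1, known from the muscle receptor, at -0.31 (-0.90 to 0.28). Chrnb4, a partner of alpha3 in autonomic neurons, had 821, 880 and 846 on nicotine arrays, against 751, 619 and 549 on controls, a difference of 0.39 (-0.05 to 0.83) at U42976_at. Its arrays did not overlap, which held for 1 of the 11 subunits, near the 4.41% above and 5.43% below over all tested probe sets. Its dimmer probe set J05232cds_s_at, named after its values were seen, stood at 0.90 with an unadjusted p of 0.0437 and overlapping arrays. Of the 11 intervals, 8 lay between -1 and 1. Genes of muscarinic receptors and of acetylcholine synthesis, transport and breakdown, 6 tested, had a median of 0.13 and 0 past the threshold. They ranged from Chrm2 at -0.12 to Chrm5 at 0.32. In this list and those below, a gene stands by its brightest probe set unless another is named.

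**Figure D3:**
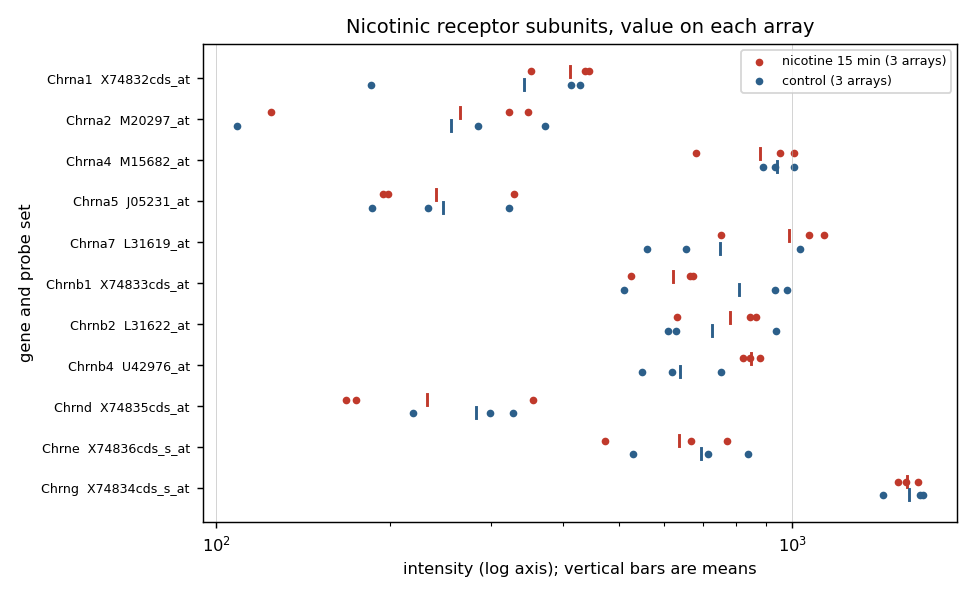
Intensity on each array (log axis) of the 11 tested nicotinic receptor subunits, with nicotine arrays above control arrays and vertical bars at the means. Points of both groups overlap for 10 subunits; for Chrnb4 the nicotine arrays lie between 821 and 880 and the controls between 549 and 751.

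No immediate early gene passed, and most could be bounded closely. The array measured 9 of the 10 genes chosen, with 19 tested probe sets, and 0 passed; differences lay between -0.47 and 0.72. For 16 of the 19 the 95% interval lay between -1 and 1. Fos, a subunit of the AP-1 transcription factor, had 16705, 16980 and 15741 at its brightest probe set on nicotine arrays, against 12357, 18047 and 14137 on controls, a difference of 0.17 (-0.12 to 0.45). Egr1, a zinc finger transcription factor, had 75381, 73463 and 73739 on nicotine arrays, against 70479, 73399 and 70197 on controls, a difference of 0.06 (-0.04 to 0.16). At the other 3 probe sets of Egr1 the differences were -0.02, -0.21 and 0.10, and the groups overlapped.

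Nr4a1, an orphan nuclear receptor induced by activity, had 8482, 9681 and 8538 on nicotine arrays, against 6233, 10486 and 11470 on controls, a difference of -0.03 (-0.48 to 0.41). Its relative Nr4a3 had 4833, 5055 and 4406 on nicotine arrays, against 6672, 5504 and 5374 on controls, a difference of -0.29 (-0.58 to 0.004). This and the brightest probe set of Egr1 were the 2 of the 19 whose groups did not overlap, 1 lower and 1 higher on the nicotine arrays; over all tested probe sets 5.43% lay below and 4.41% above, so this count is near the background. At X86003_at, its other tested probe set, Nr4a3 stood at -0.15 (-0.56 to 0.26) with overlapping groups. The effect of NMDA for 1 h was 1.37 at X86003_at and -0.07 at the brighter probe set, neither past the threshold. Junb, which dimerizes with Fos, stood at 0.17, Jun at -0.36 and Fosl2 at 0.12. Bdnf, the neurotrophin induced by calcium and CREB, stood at -0.12, 0.06, -0.47 and 0.72 at 4 probe sets. Crem, a repressor and activator of cAMP-driven transcription, was the highest of its list by brightest probe set, at 0.65 (-0.63 to 1.93). Both of its groups were split between low and high arrays.

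Both groups of this run lay above all other controls of the study at 3 of 4 probe sets of Egr1, 2 of 2 of Nr4a1 and 1 of 3 of Fos. The comparison is with 27 control arrays of 8 other runs, and it is a description with no test: levels are set across arrays that the authors scaled alike, and run, culture and handling cannot be told apart. The 2 washed-out runs hybridized the same samples, so these arrays are not 27 separate cultures. At 8 of the 884 probe sets (0.905%) all 6 arrays lay above all 27 others, and at 0 below. The 8 were 3 probe sets of Egr1, 2 of Nr4a1, and 1 each of Fos and Nr4a3, with the unnamed U75397UTR#1_s_at. Without the washed-out runs, where 17 arrays of 6 runs remain, 13 probe sets (1.47%) lay above and 1 (0.113%) below. These probe sets were picked after their values were seen.

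Fos at X03347cds_g_at had 12447, 11496 and 7373 on nicotine arrays and 8657, 7264 and 11741 on their controls, while the 27 other controls had a median of 1793 and reached 5782. For Nr4a1 at U17254_g_at the other controls had a median of 1396 and reached 4472, and the lowest of the 6 arrays was at 6233. For Egr1 at M18416_at they had a median of 4058 and reached 15324, and the lowest of the 6 was at 22810. The mean of the controls of this run was thus 5.1, 6.7 and 5.9 times the median of the other controls at these probe sets. At the brightest probe set of Fos, X06769cds_g_at, it was 3.2 times. There 1 of the 27 other controls, at 15605, lay within the range of the 6 arrays. That array was control replicate 3 of the repeat washed-out run. Without the washed-out runs the other controls reached 6706 at this probe set. At the other Fos probe set, X06769cds_at, 1 of the 27, at 7051, lay above all 6 arrays, which held 3176 to 4168. That was replicate 4 of the repeat washed-out run, and without the washed-out runs the other controls reached 1255. Replicate 4 also held the 5782 above, and replicate 3 the 4472. Median intensity was 1280 on replicate 3 and 1376 on replicate 4, against 443 to 808 on the other control arrays. Their actin ratios were 0.159 and 0.417, against 0.741 or more, while their GAPDH ratios lay within the range of the others. The mean of the controls of this run was 2.4 times the median of the 27 at Junb and 0.984 times at the brightest probe set of Bdnf.

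**Figure D4:**
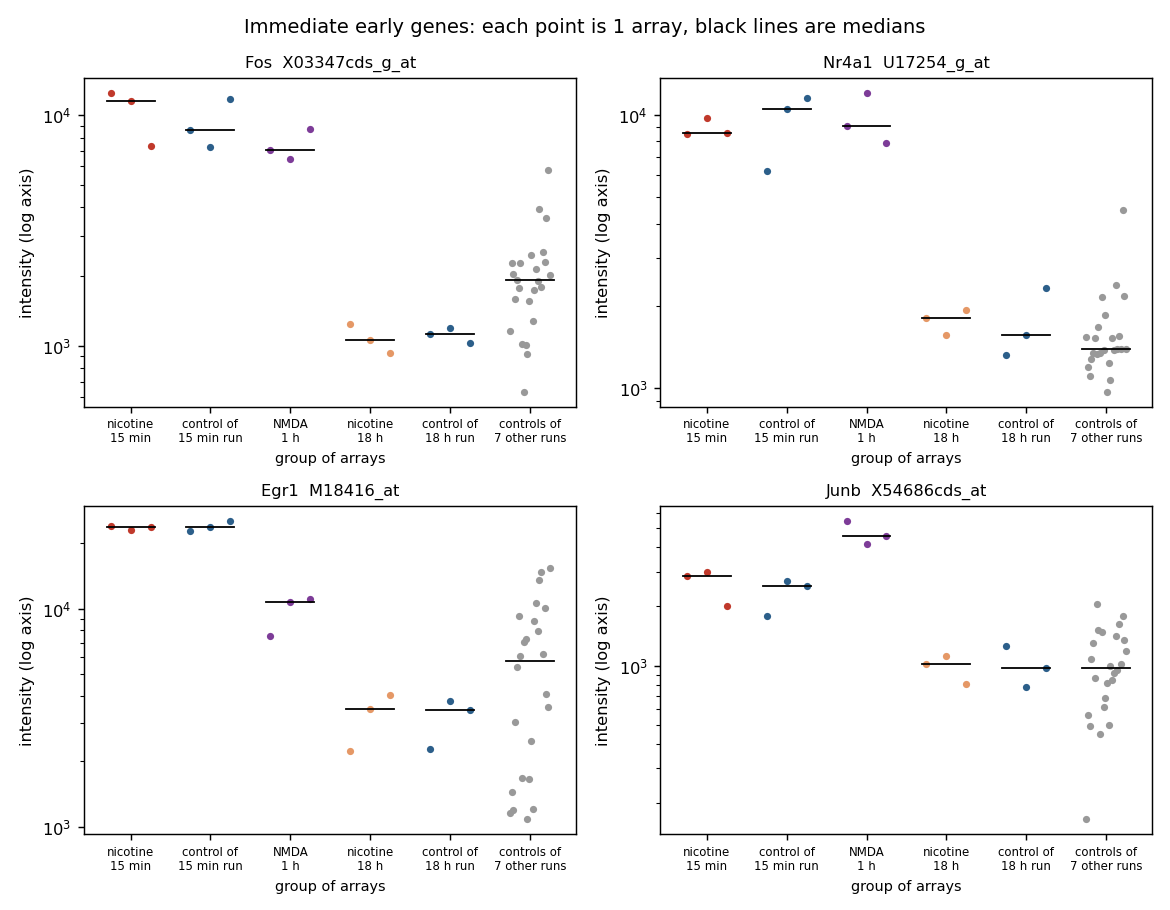
Intensity on each array (log axis) of 1 probe set each of Fos, Nr4a1, Egr1 and Junb, for nicotine 15 min and its controls, for NMDA 1 h, nicotine 18 h and their shared controls, and for controls of 7 other runs; black lines are medians. Both groups of the 15 min run lie above the controls of all other runs for Fos, Nr4a1 and Egr1, with controls of the 15 min run for Fos at 7264 to 11741.

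NMDA for 60 min opens glutamate-gated calcium channels and has the same time from first exposure to harvest as the nicotine cultures. The effect of nicotine for 15 min against its controls was set against the effect of NMDA against its own, as a difference of differences across the runs, with each effect also fitted on its own 2 groups. By limma 7 of 834 probe sets tested in both runs (0.839%) passed, all 7 with a lower effect for nicotine. They were 3 of Fos, 2 of Nr4a1, and 1 each of Junb and Egr1. Both probe sets of Nr4a1, and 2 of the 3 of Fos, are named for the same sequence, so the 7 are not separate observations. The labels give NMDA and control arrays of the other run the same 3 dates, which pairs them and which this fit left out. With the date as a block in that run alone, an alternative chosen after the values were seen, 13 passed, all lower for nicotine and among them the same 7. These added Egr1 at AF023087_s_at (-1.12, limma, adjusted p = 0.00572) and rc_AI176662_s_at (-2.03, adjusted p = 0.00249), Nr4a3 at X86003_at (-1.52, adjusted p = 0.00572), Jun (-1.83, adjusted p = 0.0310) and 2 probe sets without a gene name. With the replicate number as a block in both runs 15 passed, 14 lower and 1 higher for nicotine, and the higher one was Grin2a (AF001423_at), an NMDA receptor subunit, at 2.04 (limma, adjusted p = 0.00480, against 0.200 without the block). For Fos (X03347cds_g_at) the effect was 0.17 for nicotine and 2.67 for NMDA, a difference of -2.50 (95% interval -3.21 to -1.78, limma, adjusted p = 0.00176). For Nr4a1 (U17254_g_at) it was -0.03 for nicotine and 2.45 for NMDA, a difference of -2.49 (-3.30 to -1.68, limma, adjusted p = 0.00370). Junb stood at 0.17 for nicotine and 2.19 for NMDA, a difference of -2.02 (-2.76 to -1.29, limma, adjusted p = 0.00850). For Egr1 (M18416_at) the effects were -0.02 for nicotine and 1.62 for NMDA, a difference of -1.64 (-2.25 to -1.03, limma, adjusted p = 0.00860). At the Egr1 probe set U75398_s_at they were 0.10 and 0.22, a difference of -0.12 (-0.95 to 0.71, limma, adjusted p = 0.994).

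The 2 effects set out from different levels, so a smaller effect here does not mean a lower level. Fos (X03347cds_g_at) averaged 10439 ± 2697 after nicotine and 9221 ± 2291 in its controls, and 7436 ± 1179 after NMDA and 1115 ± 81.3 in its controls (SD, n = 3 each). Nr4a1 (U17254_g_at) averaged 8900 ± 677 after nicotine and 9396 ± 2783 in its controls, and 9655 ± 2082 after NMDA and 1739 ± 528 in its controls. For Egr1 (M18416_at) the nicotine cultures averaged 23524 ± 526 and their controls 23924 ± 1206, and the NMDA cultures 9752 ± 1977 and their controls 3165 ± 774. For Junb they averaged 2625 ± 537 and 2334 ± 483, and 4720 ± 660 and 1001 ± 237. Control cultures of the 15 min run were thus above NMDA-treated cultures of the other run for Egr1, and below them for Junb. In the run with NMDA, NMDA replicate 2 and control replicate 2 had GAPDH ratios of 2.18 and 3.36, against 1.27 to 1.58 on the other 4 arrays of these groups. The part of this in the differences was not tested; without both, in an alternative chosen after the values were seen, 14 probe sets passed by limma, among them the same 7, with 13 lower and 1, the transporter gene Slco1a4, higher for nicotine.

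**Figure D5:**
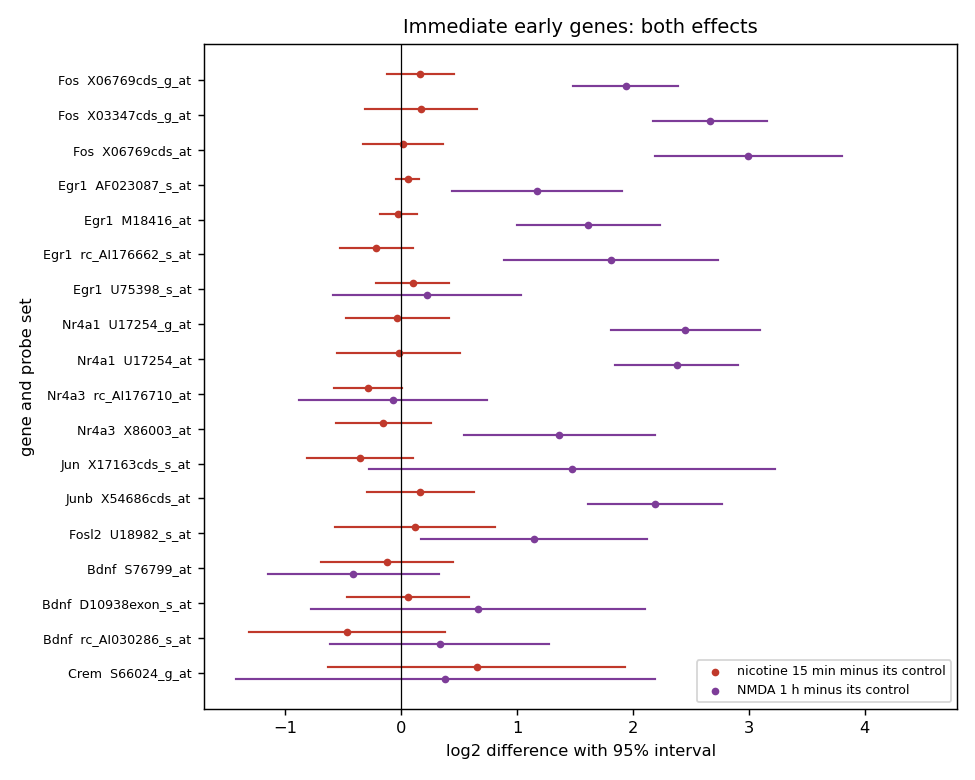
Log2 difference with its 95% interval for 18 immediate early probe sets tested in both runs, for nicotine 15 min against its controls (upper mark of each row) and for NMDA 1 h against its controls (lower mark). The nicotine effects lie around 0, while Fos, Nr4a1, Junb and Egr1 (M18416_at) lie between 1.62 and 2.99 after NMDA.

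The regions just before the start of Nr4a1 and Junb are shown as examples of the genes that passed in the difference from NMDA, since activity acts on such genes partly through CREB, which binds the cAMP response element TGACGTCA or its half-site TGACG. Fos and Egr1, which also passed, are not shown. RefSeq promoters (build GRCr8) were at hand for 6 of the 9 immediate early genes, and the 250 bases before the annotated start were searched on both strands. Half-sites (TGACG, or CGTCA on the other strand) are in capitals. Nr4a1 lies on the plus strand at chr7:134259888-134260137 and Junb on the plus strand at chr19:40080876-40081125.
Nr4a1: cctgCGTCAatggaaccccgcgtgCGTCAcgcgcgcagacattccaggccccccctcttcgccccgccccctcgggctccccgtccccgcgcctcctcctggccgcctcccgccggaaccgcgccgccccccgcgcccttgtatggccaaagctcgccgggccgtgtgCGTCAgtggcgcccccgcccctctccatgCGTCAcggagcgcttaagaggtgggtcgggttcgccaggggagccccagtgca
Junb: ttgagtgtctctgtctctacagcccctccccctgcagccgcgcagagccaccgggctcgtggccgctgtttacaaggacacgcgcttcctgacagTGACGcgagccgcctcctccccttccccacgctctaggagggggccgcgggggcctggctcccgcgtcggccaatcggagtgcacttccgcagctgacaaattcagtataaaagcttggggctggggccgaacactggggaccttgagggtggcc

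The Nr4a1 window holds 4 half-sites, which begin 246, 226, 82 and 53 bases before the start, and the Junb window holds 1, which begins 155 bases before it. The full element TGACGTCA is in neither. Of 33469 promoter windows searched, 18.2% hold the half-site and 1.59% the full element, so a match here is a description of the letters and no sign of binding.

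Nicotine for 15 min was also set against nicotine for 18 h at the same dose, which was run separately with its own controls. By limma 0 of 834 probe sets (0%) differed between the effects, with 18 at an unadjusted p under 0.05. The 5 probe sets of a single gene with the smallest p were those of Nos2 at -2.34 (95% interval -3.78 to -0.90), Slc1a6 at -1.90, the insulin gene Ins1 at -1.67, the protease gene Adam17 at -1.57 and the transcription factor gene Hes1 at 0.69 (limma, adjusted p = 0.962 for each). Nos2 stood at -1.19 after 15 min and at 1.15 after 18 h, and Slc1a6 at -1.04 after 15 min and at 0.86 after 18 h. Of the 20 genes named above, 17 were tested in both runs, and 9 of these had the same sign after 18 h. The interval of a difference between the effects reached a median of 0.841 to either side.

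In the signalling genes between calcium entry and CREB, 24 were tested and 0 passed, with a median log2 difference of -0.01. Camk2a was the lowest at -1.38, as described, and Prkca, a classical protein kinase C, the highest at 0.51. Creb1 itself had 541, 570 and 487 on nicotine arrays, against 497, 391 and 577 on controls, a difference of 0.12 (-0.41 to 0.66). Its groups overlapped. In the list only Camk2a had groups that did not, 1 of 24, near the 5.43% below and 4.41% above over all tested probe sets.

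Receptors of the fast transmitters did not pass against control either. All 6 tested NMDA receptor subunits and the 8 AMPA and kainate receptor subunits stayed short of the threshold, with medians of 0.02 and -0.11. Grin2a, a subunit that gains weight as cortex matures, was the highest at 1.11 (0.24 to 1.99), with 1478, 1532 and 638 on nicotine arrays, against 630, 702 and 265 on controls. The groups overlapped, and replicate 3 was the lowest array of both. Without nicotine replicate 3 its effect was higher than that of NMDA by 2.43 (limma, adjusted p = 0.0376), besides the call with a replicate block given above. Gria1, an AMPA receptor subunit, had 2581, 3112 and 3026 on nicotine arrays, against 3424, 3368 and 3670 on controls, a difference of -0.26 (-0.57 to 0.04). Its nicotine arrays lay below the controls, which held for 1 of the 8, against 5.43% of all tested probe sets. The lowest members were Grin3a at -0.35 and Gria3 at -0.28, and the highest of the second list was Grik5 at 0.14. Dimmer probe sets of the same genes stood elsewhere. Gria3 was at 0.56 at another probe set, the highest of all probe sets of its list, and Grin3a at -0.78 at another. Metabotropic glutamate receptors, 6 tested, had a median of 0.01, from Grm5 at -0.17 to Grm2 at 0.31.

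GABA and glycine receptors, the inhibitory receptors, had a median of -0.12 over 13 tested genes with 0 past the threshold. In 3 of the 13 all nicotine arrays lay below all controls, against 5.43% of all tested probe sets: Gabbr2, a subunit of the GABA type B receptor, at -0.17, Gabrg1 at -0.25 and Gabrr1 at -0.16. Gabbr2 had 8507, 9363 and 9447 on nicotine arrays, against 10900, 10387 and 9499 on controls. Summed over the 19 genes of the list on the array, signals were 33360 to 37703 on nicotine arrays and 39404 to 40466 on controls, without overlap. Summed over all 31 probe sets of the list the ranges overlapped, at 50247 to 56564 on nicotine arrays and 55653 to 60180 on controls. The sums were not tested, and an exact permutation test of 3 arrays against 3 cannot go below p = 0.1. Gabbr1 and Gabbr2 are the brightest of them and make up most of the sum over genes. By brightest probe set the list's lowest member was Gabrd at -0.81 (-1.81 to 0.19) and its highest Gabrb1 at 0.23. Over all 22 tested probe sets of the list the highest was the Gabra5 probe set named earlier, at 0.47. Of these 22, 3 had all nicotine arrays below the controls and 1 had them above.

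Monoamine receptors, transporters and enzymes had a median of 0.09 over 21 tested genes, and 0 passed. Th, which makes the precursor of dopamine, was the highest at 1.13 (-0.03 to 2.30), with 283, 1245 and 633 on nicotine arrays, against 136, 498 and 213 on controls. Its groups overlapped, and replicate 2 was the highest array of both. Slc6a3, the dopamine transporter, was the lowest at -0.71. Sodium and calcium channels, 17 tested, had a median of -0.15 with Scn3a lowest at -0.31 and Cacna1e highest at 0.33. Potassium channels, 19 tested, had a median of -0.02 with Kcna5 lowest at -0.41 and Kcna6 highest at 0.55. Over all tested probe sets, sodium and calcium channels ran from Scn8a at -0.70 to Cacna1a at 1.43. The lowest of the potassium channels was then Kcnma1 at -0.81. Of these channels 0 passed.

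Genes of synaptic release, 16 tested, had a median of -0.01, with Syt4 lowest at -0.23 and the adhesion gene Nlgn1 highest at 0.52. Neuropeptides and granins, 11 tested, had a median of 0.06, from Pdyn at -0.36 to Oxt at 0.32 by brightest probe set. Over all 20 tested probe sets of that list the highest was Avp at 1.02. Neurotrophic factors and receptors, 14 tested, had a median of -0.03. Cntf, a survival factor, was the lowest of these at -0.69, with 220, 214 and 181 on nicotine arrays, against 372, 438 and 297 on controls. Those groups did not overlap, which held for 1 of the 14, near the 5.43% below and 4.41% above over all tested probe sets. The highest of the list by brightest probe set, Insr, stood at 0.20, while over all 25 tested probe sets it was Bdnf at 0.72. In each of these lists 0 passed.

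By brightest probe set, cell death genes lay close together. All 15 tested were between -0.29 for Bcl2, which protects from apoptosis, and 0.15 for Casp1. Over all 29 tested probe sets of the list the highest was Hrk at 0.53. Bax, which promotes apoptosis, had 20371, 19992 and 20718 on nicotine arrays, against 21244, 21260 and 19505 on controls, a difference of -0.02 (-0.19 to 0.15). Stress genes, 11 tested, had a median of -0.12, from Nos2 at -1.19 to Ptgs2 at 0.14. Glucose transporters and energy enzymes, 9 tested, had a median of -0.10, from Slc2a3 at -0.26 to Atp1b1 at 0.13. In these lists too 0 passed.

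The labelled cells are neurons, and their markers were bright. All 12 neuron markers on the array were tested, with a median of -0.02 and 0 past the threshold, from Nefh at -0.19 to Mapt at 0.12. Gap43, a growth cone protein, had 45429, 45274 and 46671 on nicotine arrays, against 46655, 43701 and 49883 on controls, which overlapped. The summed signal of the 12 was 189313 to 200205 on nicotine arrays and 185796 to 197858 on controls. Astrocyte markers, 7 tested and led by Apoe and Glul, had a median of -0.08 with Slc1a2 lowest at -0.48 and Gja1 highest at 0.25. Their summed signal was 84196 to 84695 on nicotine arrays and 87436 to 92256 on controls, without overlap, and 2 of the 7, Apoe and Slc1a2, had all nicotine arrays below the controls, against 5.43% of all tested probe sets. Over all 17 probe sets of these genes the sums overlapped, at 143211 to 147395 on nicotine arrays and 143250 to 157551 on controls.

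Oligodendrocyte markers, 5 tested, summed to 8686 to 10254 on nicotine arrays and 10417 to 11108 on controls, also without overlap, and over all 12 of their probe sets to 11000.5 to 12450 on nicotine arrays and 12250 to 13102 on controls, which overlapped. Mog was the highest of the 5 at 1.23 and Mbp the lowest at -0.50. Of all lists summed over their brightest probe sets, only GABA and glycine receptors, astrocyte markers and oligodendrocyte markers had sums without overlap. These sums were picked after their values were seen and were not tested. An exact permutation test of 3 arrays against 3 cannot go below p = 0.1. The part of these cells in the differences above was not tested, and in whole cultures fewer cells of a type and less RNA per cell cannot be told apart. The only microglial marker measured, Itgam, was too dim to test, at 222, 317 and 122 on nicotine arrays and 217, 73.9 and 157 on controls. Of 2 endothelial or meningeal markers, Slc2a1 stood at -0.18 and Igfbp2 at -0.05.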

How the data were processed

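The deposited table holds fluorescence intensity on a linear scale for rat neurobiology arrays. No source used here names the software. The arrays had been scaled by the authors to a common mean, with 2% trimmed at each end. Genes were named from the platform annotation, with 1137 probe sets for 1 gene, 8 for several and 118 for none, and 0 symbols changed through RefSeq. Values became log2(value + 57.7), where 57.7 is the run's 10th percentile over values above 0, so a difference understates the change of dim probe sets. Probe sets with a mean under the 30th percentile were left out. The groups were compared by limma (version 3.58.1, R 4.3.3) with an intensity trend, and adjusted by the Benjamini-Hochberg method over all tested probe sets, 2-sided, at 0.05. The code was tested on simulated data. A gene in a list stands by its brightest probe set. The number of arrays limits the precision. Named genes follow the rule in the text, with the immediate early genes, the nicotinic subunits and the extremes of each list. Members, lists and rules were chosen with earlier results of these data known. Replicates of the 15 min run are numbered 1 to 3 in both groups in the sample descriptions and 1, 4 and 5 in both in the titles. Same-numbered arrays deviated together at r = 0.163, 0.112 and 0.011, and arrays of different numbers at -0.132 to 0.029. The values 0.163 and 0.112 thus lay above every pair of different numbers. Since 1 same-numbered value is under 0.1 and no label says what the numbers mark, the main fit left pairing out. The shared numbers leave pairing possible. A fit with the replicate number as a block also had 0 past the threshold (limma, lowest adjusted p = 0.243). In the 18 h run the labels pair arrays by date, and NMDA and control arrays of a date deviated together at r = 0.333, 0.534 and 0.391.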

Additional observations from a re-analysis of the deposited data

Results flagged for a closer look

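The effect of nicotine for 15 min differed from the effect of NMDA for 1 h, by a test of the difference itself, at 7 probe sets. Not all of these are separate observations, since some are named for the same sequence. The differences in log2 effect, nicotine minus NMDA, were -2.50, -1.77 and -2.98 at the Fos probe sets X03347cds_g_at, X06769cds_g_at and X06769cds_at. They were -2.49 and -2.40 at the Nr4a1 probe sets U17254_g_at and U17254_at, -2.02 at Junb and -1.64 at Egr1 (M18416_at). In each case the effect of NMDA was positive in its own run and that of nicotine lay between -0.03 and 0.17. The controls of the 15 min run were 2.4 to 6.7 times the median of the 27 other controls at these probe sets; the part of that level in the differences was not tested.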

How the results depend on the processing

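The count of 0 for nicotine against control was the same under every other offset, filter, normalization and variance model, with a spread over both runs, and with the replicate block, where the lowest adjusted p was 0.243. Without each replicate in turn it was 0 to 1. All 20 named genes kept their sign in each of the 16 alternatives that tested them, and 0 passed, with a lowest adjusted p of 0.124. Their kept sign is no finding, because they were chosen for groups that did not overlap. Leaving out 1 array or changing the offset could then not change the sign, and the filter and variance model leave the difference as it was. Of the 11 nicotinic subunits 6, and of the 19 immediate early probe sets 9, changed sign in at least 1 alternative, always without passing. Against NMDA the count was 15 with the replicate block in both runs, 7 to 8 without each replicate of the 15 min run, and, in alternatives chosen after seeing the data, 13 with the replicate block in the 18 h run alone, 11 without control replicate 2 of the 18 h run, 7 without NMDA replicate 2 and 14 without both; the same 7 passed in each. The cause of these changes was not tested. Against nicotine for 18 h it was 0 throughout. With all probe sets of a gene in place of the brightest, the medians of 3 lists moved beyond their spread: calcium and CREB signalling to -0.09, metabotropic glutamate receptors to 0.13 and neuropeptides to 0.13. Dim probe sets limit what could be seen: of the dimmest 295, 137 had an interval within -1 to 1.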
